A study of Homo sapiens with 2 samples.

Results

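The cells described here are the ordinary cells of a human embryonic stem cell experiment, 9391 of 24729 deposited cell barcodes, of which 4316 came from the sense control library SO_L1 and 5075 from the antisense library ASO_L1. They were chosen by measured values: at least 1000 detected genes, a share of mitochondrially encoded UMIs (unique molecular identifiers, which count captured transcripts) from 4% to below 20%, fewer than 5 UMIs of CER1, fewer than 2 of PAX6 and no UMI of ZSCAN4, TPRX1 or DUXB. The rule thus leaves out cells with little mitochondrial RNA and cells carrying markers of anterior mesendoderm, of neural fate or of the embryo's 8-cell (8C) stage. Both libraries are H9, an established human embryonic stem cell line kept in RSeT, a medium for naive culture, and both grew with 10 nM DZNep and 5 nM TSA from transfection to collection. Cells of each library received 25 nM of a fluorescein-labelled oligonucleotide, the sense oligonucleotide SO-L1 or the antisense oligonucleotide ASO-L1 against LINE1, and were collected 48 hours later as dye-positive cells. Both cultures also held 3 small molecules for the opening 24 hours: 0.7 µM Trans-ISRIB, 5 µM emricasan and the ROCK inhibitor Y-27632 (10 µM). Each side is 1 library from 1 line, so no difference has a replicate check, no test was possible between the groups, and every interval covers counting error only.

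LINE1 elements are retrotransposons whose RNA is abundant in early embryos and pluripotent cells, where it acts in the nucleus and at the nucleolus. An antisense oligonucleotide pairs with its target RNA and can block it or direct its cleavage by RNase H. DZNep lowers the methylation carried out by the Polycomb complex PRC2, and TSA inhibits histone deacetylases. Trans-ISRIB blunts the integrated stress response, the shared pathway by which cells with phosphorylated eIF2 cut general translation and induce ATF4 targets. Emricasan blocks caspases and Y-27632 blocks the kinase ROCK. The series asks how LINE1 and PRC2 act on the nucleolus and on the 8C programme; the comparison below asks what differs in cells outside that programme. The gene tables hold no transposon families, so LINE1 RNA itself was not analysed here.

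The ordinary cells were 65.9% of the 6553 SO_L1 cells and 55.9% of the 9084 ASO_L1 cells that passed the filter on genes and mitochondrial share. Among cells in the mitochondrial range, the gene rules removed 224 of 4540 in SO_L1 and 1172 of 6247 in ASO_L1, so they took 4.93% and 18.8%. At the edges of the rule, 8 SO_L1 and 92 ASO_L1 cells held 4 UMIs of CER1 and stayed in, while 3 and 62 held 5 and were left out. For PAX6, 170 and 257 cells with 1 UMI stayed in, and 47 and 83 with 2 UMIs were left out. Of mitochondrial shares, 77 and 180 cells lay from 4% to below 5%, and 90 and 96 from 3% to below 4%. The median cell held 41026 UMIs outside the mitochondrial genes and 7985 genes in SO_L1, and 50781 UMIs and 8377 genes in ASO_L1, with median mitochondrial shares of 9.05% and 7.58%. Summed over cells the libraries held 180103682 and 266420962 UMIs.

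Many barcode sequences occurred in both libraries. Of the deposited barcodes, 6105 were shared, and in 6082 of these pairs the copy in one library held over 10 times the UMIs of the other, with a median ratio of 74.4 where ASO_L1 was deeper. Among ordinary cells, 746 in SO_L1 and 2942 in ASO_L1 carried a shared barcode, and 158 and 2 were the faint copy. The faint copies held 0.149% of the SO_L1 UMIs. Cells with a shared barcode were deeper than the others, at a median of 60544 against 39485 UMIs in SO_L1 and 56281 against 42715 in ASO_L1.

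Marker genes bore out the label pluripotent. The 7 pluripotency markers (POU5F1, SOX2, NANOG, LIN28A, TDGF1, DPPA4 and L1TD1) summed to 3457 CPM (UMIs of a gene per 1000000 UMIs, mitochondrial genes left out) in SO_L1 and 3508 in ASO_L1, and the lowest of them, NANOG, stood at 71.2 and 76.2 CPM. Naive markers summed to 283 and 387 CPM, nearly all of it DPPA5 at 268 and 359, while KLF17, a defining naive factor, stood at 0.477 and 0.353 CPM. Primed markers summed to 657 and 700.2 CPM, most of it CD24 at 589 and 568. Marker sets of mesendoderm (12.5 and 16.1 CPM), primitive endoderm (39.8 and 28.4), trophectoderm and amnion (2.96 and 3.07), fibroblasts (26.2 and 30.9) and the 8C stage (1.22 and 6.64) were low in both libraries, the neural set (117 and 124) was nearly all NES, which pluripotent cells also express, and no marker in any set was at 0. By these markers the cells were pluripotent in both libraries, and the naive label rested on few of its defining genes.

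Most genes stood close together in the 2 libraries. A gene was called higher or lower when its CPM in ASO_L1 was at least 1.5 times higher or lower than in SO_L1 and its exact 95% interval left out a ratio of 1. Of 20671 genes with at least 100 UMIs, 1872 (9.06%) were higher in ASO_L1, 2763 (13.4%) were lower and 77.6% lay between. At 2-fold the shares were 3.01% higher and 3.31% lower. The median log2 ratio of all these genes was −0.07, and 90% of them lay between −0.88 and 0.81. Centring the ratios on that median turned the split into 2275 higher and 2157 lower genes, and TMM scaling gave 2310 and 2113, so higher genes were 40.4% of the calls as measured and 51.3% or 52.2% after these scalings. The excess of lower genes thus depended on the scaling. Some genes just under 1.5-fold, such as MALAT1 and ZFAS1, counted as higher once ratios were centred. Without the faint copies of shared barcodes 1876 genes were higher and 2763 lower. Without any shared barcode, which also takes out deeper cells, 1716 were higher and 4483 lower, at a median log2 ratio of −0.17. Shares called also varied with level: 14.8% of genes with a mean up to 1 CPM were higher and 21.5% lower. Of genes with a mean over 100 CPM, 4.84% were higher and 4.63% lower. Every list below is read against the shares and median of all 20671 genes as measured, which are not matched to a list for level.

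**Figure D1:**
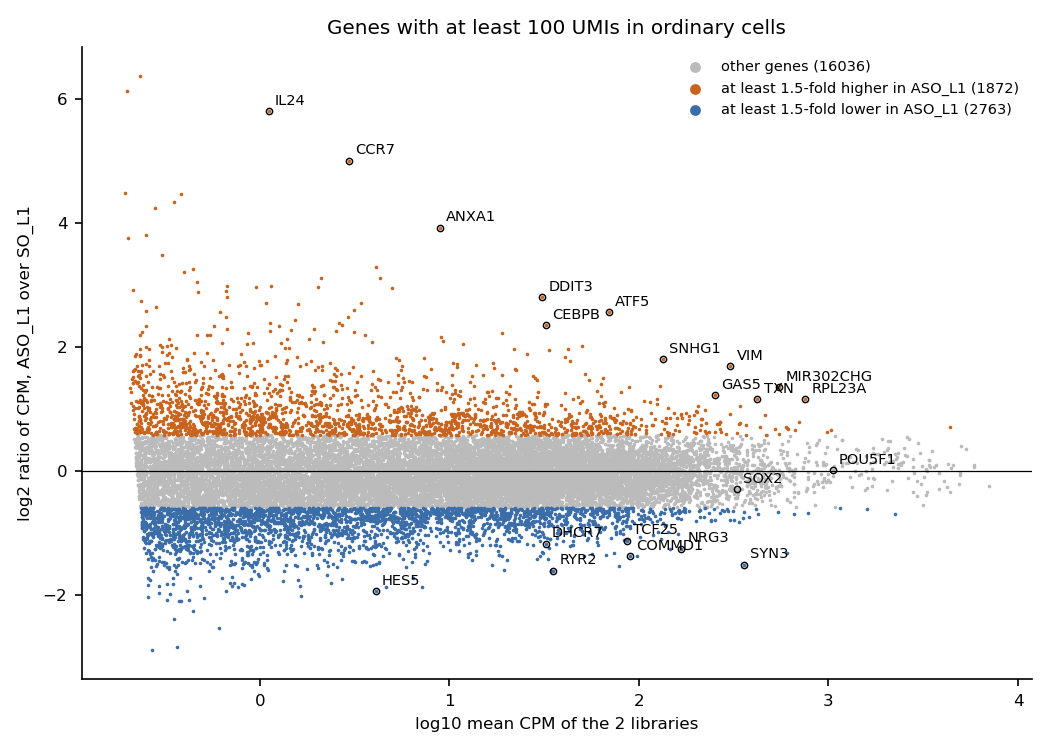
Each point is 1 of 20671 genes: the x axis is the log10 mean CPM of both libraries and the y axis the log2 ratio of CPM, ASO_L1 over SO_L1. Orange points are the 1872 genes called higher and blue points the 2763 called lower; POU5F1 lies near 0, while ATF5, SNHG1, VIM and MIR302CHG lie above it and SYN3, NRG3 and COMMD1 below.

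Among abundant genes, the highest by the naming rule joined a stress factor, host genes of small RNAs and a cytoskeletal gene. ATF5, a transcription factor of the integrated stress response (GENCODE 29 on GRCh38, chr19:49928702-49933935), stood at 20.1 CPM in SO_L1 and 119 in ASO_L1, a ratio of 5.92 (95% interval 5.72 to 6.13; ranges in parentheses below are the same interval). SNHG1, a host gene of small nucleolar RNAs, stood at 59.3 and 207 CPM (3.50-fold, 3.42 to 3.57). Its relatives SNHG7 (uncertain as an antisense gene) and GAS5 were 2.55-fold and 2.35-fold higher. VIM, the intermediate filament protein vimentin, stood at 143 and 464 CPM (3.24-fold, 3.20 to 3.28). GAL, which encodes the neuropeptide galanin and is strongly expressed in human pluripotent cells, stood at 71.9 and 187 CPM (2.60-fold), and GNB2, a G protein beta subunit, at 47.1 and 114 (2.42-fold). TXN, the redox protein thioredoxin, was 2.24-fold higher (259.8 and 582 CPM). RPL23A, a ribosomal protein gene (chr17:28719393-28724359), stood at 464 and 1043 CPM, 2.25-fold higher (2.23 to 2.26), although its many processed pseudogenes make its count uncertain. Among ribosomal protein genes it stood apart, since 79 of 85 in that list lay between the thresholds.

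MIR302CHG is the host transcript of the miR-302 cluster, the microRNA family most typical of human pluripotent cells, which targets cell cycle inhibitors and differentiation genes. The host RNA (chr4:112646476-112650051) stood at 309 CPM in SO_L1 and 789 in ASO_L1, 2.55-fold higher (2.53 to 2.58). GENCODE types it as an antisense gene, and with the strand setting not given its count is uncertain. The 5 mature 3p microRNAs below lie within it on the same strand and are shown because they are what the transcript is known to yield; the libraries count the host RNA and not the mature microRNAs. Sequences are from RefSeq (GRCh38.p14), 5′ to 3′, with the seed (bases 2 to 8) in capitals:
hsa-miR-302a-3p (chr4:112648186-112648208, minus strand): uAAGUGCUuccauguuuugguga
hsa-miR-302b-3p (chr4:112648489-112648511, minus strand): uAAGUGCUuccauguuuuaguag
hsa-miR-302c-3p (chr4:112648366-112648388, minus strand): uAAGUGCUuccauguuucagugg
hsa-miR-302d-3p (chr4:112648006-112648028, minus strand): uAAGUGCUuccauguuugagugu
hsa-miR-367-3p (chr4:112647877-112647898, minus strand): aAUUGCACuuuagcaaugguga
The 4 miR-302 members share the seed AAGUGCU, and miR-367 has the seed AUUGCAC.

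The lowest of the abundant genes was SYN3, a synapsin gene (chr22:32512552-33058372), which stood at 530.5 CPM in SO_L1 and 187 in ASO_L1, a ratio of 0.352 (0.348 to 0.356). COMMD1, a regulator of copper handling and protein sorting, stood at 129 and 49.996 CPM (0.386 times) and NRG3, a neuregulin that binds ERBB4, at 236 and 99.3 (0.421 times). CHODL, a membrane lectin gene, stood at 0.468 times its SO_L1 level and FAM155A, which encodes a subunit of the NALCN sodium leak channel complex, at 0.497 times. TCF25 (0.460 times), MRPL23 (0.466), GNPTAB (0.466), CDC16 (0.481) and C7orf50 (0.493) complete the abundant genes named by the rule. CDC16 is a subunit of the anaphase-promoting complex and GNPTAB makes the mannose 6-phosphate tag of lysosomal enzymes.

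**Figure D2:**
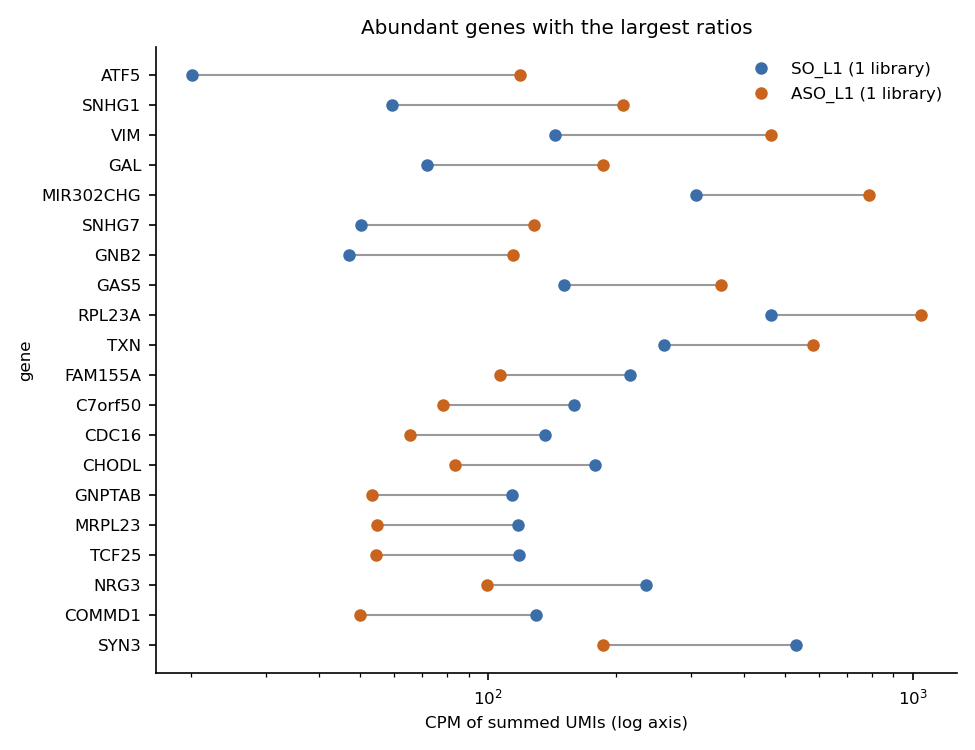
CPM of summed UMIs (log axis) in SO_L1 (blue) and ASO_L1 (orange), 1 library each, for the 10 highest and 10 lowest abundant genes by the naming rule. ATF5 spans the widest gap, from 20.1 to 119 CPM, and SYN3 has the lowest ratio, from 530.5 to 187.

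The highest ratios belonged to scarce genes, some of them concentrated in few cells. IL24, a cytokine gene, had 7 UMIs in SO_L1 and 582 in ASO_L1, a ratio of 56.2 (27.1 to 140.4), and 79.0% of the ASO_L1 UMIs lay in the 1% of cells with most of them. CCR7, a chemokine receptor gene, stood at 0.178 and 5.72 CPM (32.2-fold, 22.7 to 47.2), with 42.4% of its ASO_L1 UMIs in the top 1% of cells, and ANXA1, an annexin, at 1.09 and 16.6 (15.2-fold), with 64.3%. STMN4 (9.80-fold), TM4SF19 (8.71), LIM2 (8.66), PLAU, the urokinase gene (7.95), and TAC1, the substance P precursor (6.59), followed. In STMN4 44.0% and in TM4SF19 63.1% of the ASO_L1 UMIs lay in the top 1% of cells. HES1 and ZIC2, transcription factor genes of Notch signalling and of primed cells, were 6.47-fold and 6.56-fold higher, at 0.428 and 2.77 and at 0.283 and 1.86 CPM. For IL24, CCR7, ANXA1, STMN4 and TM4SF19 the ratio thus describes a small share of the cells. The other genes named here were also seen in few cells. With cells thinned to equal depth, as described below, the shares of ASO_L1 cells holding a UMI were 3.12% for ZIC2, 3.43% for PLAU and 4.40% for HES1. They were 7.96% for LIM2 and 8.62% for TAC1, against 1.61% for IL24, 3.04% for TM4SF19, 4.78% for CCR7, 5.98% for STMN4 and 7.65% for ANXA1. Whether scarcity alone leaves so few cells was not tested. Counting intervals leave out the spread between cells.

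At the low end, several genes were also concentrated in few cells. HES5, the other main Notch effector, stood at 6.46 CPM in SO_L1 and 1.69 in ASO_L1 (0.261 times), opposite to HES1. NCAM1, a neural cell adhesion molecule, stood at 11.2 and 3.097 CPM (0.275 times), with 83.3% of its SO_L1 UMIs in the top 1% of cells; without those cells of each library its log2 ratio was −0.53, short of the threshold. CYP19A1, the aromatase gene, stood at 0.298 times, INHBC, an inhibin subunit, at 0.342 and DOCK8, a guanine exchange factor, at 0.362 times. In INHBC 85.3% of SO_L1 UMIs, and in DOCK8 77.5%, lay in the top 1% of cells, and without these the log2 ratio of DOCK8 was −0.57, also short of the threshold. RYR2, the ryanodine receptor calcium channel, was more evenly spread (4.86% in the top 1%), and stood at 53.1 and 17.5 CPM (0.329 times). ARHGAP28 (0.350), PILRB (0.375), CNGA4 (0.353), LRMDA (0.354), PCDH7 (0.372) and CCDC92 (0.340) were also among the lowest. In CNGA4 the top 1% of cells held 77.0% of the SO_L1 and 76.2% of the ASO_L1 UMIs.

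**Figure D3:**
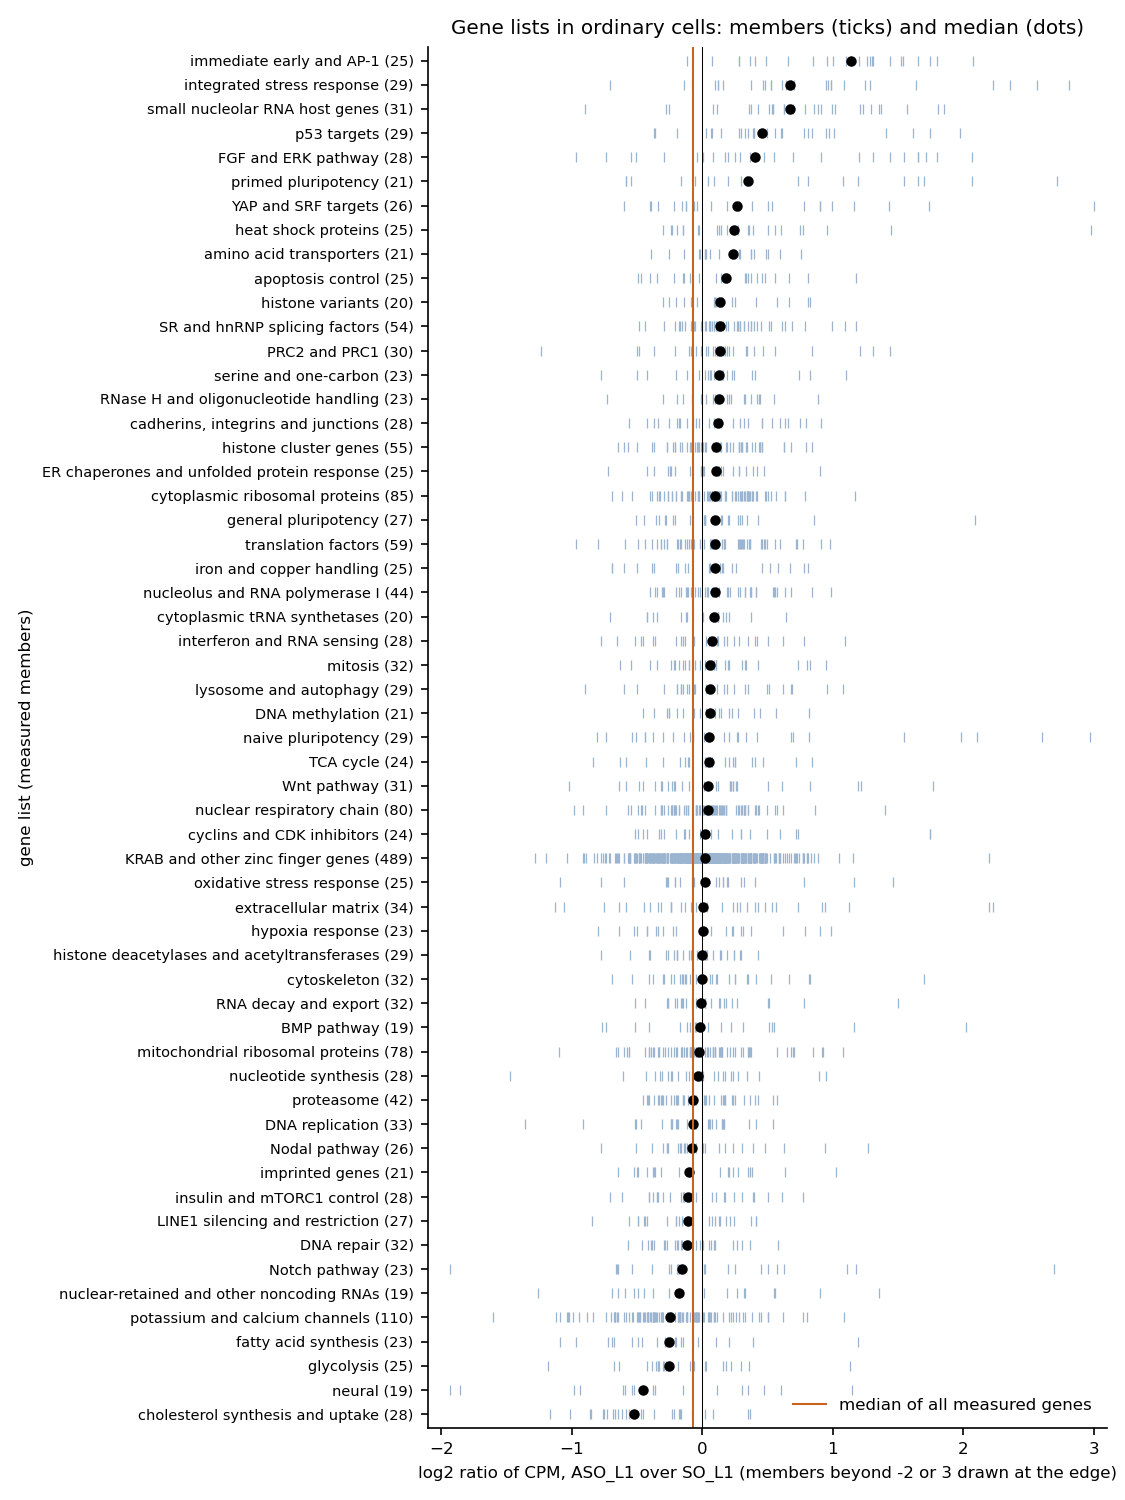
Log2 ratio of CPM, ASO_L1 over SO_L1, for the 57 gene lists with at least 75% of members measured (ticks are members, black dots the list median, the orange line the median of all measured genes at −0.07). Immediate early genes (1.14), integrated stress response genes and small nucleolar RNA host genes (both 0.67) lie highest and cholesterol genes (−0.52) lowest.

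Integrated stress response genes formed one of the highest lists: 29 were measured, 17 were higher and 1 lower in ASO_L1, with a median log2 ratio of 0.67. Its transcription factors led. DDIT3, which encodes CHOP, stood at 7.68 and 53.8 CPM (7.01-fold, 6.63 to 7.41), CEBPB at 10.6 and 54.0 (5.12-fold), and ATF5 was given above. ATF4, the central factor, was 1.93-fold higher (78.7 and 152 CPM), CEBPG, its partner, 2.12-fold and ATF3 2.44-fold. Genes that restrain the response were higher as well. TRIB3, a pseudokinase that restrains ATF4, stood at 6.65 and 31.1 CPM (4.67-fold). PPP1R15A and PPP1R15B, which direct dephosphorylation of eIF2, were 2.37-fold and 1.60-fold higher. Secreted products followed, with GDF15 at 3.102-fold, VEGFA at 1.98-fold and STC2 at 1.95-fold. The targets that supply amino acids and charged tRNAs were less uniform: IARS was 1.56-fold higher, ASNS and CHAC1, both 1.44-fold, were below the threshold, and SARS was lower at 0.613 times (133 and 81.3 CPM). Once ratios were centred ASNS and CHAC1 passed the threshold. DDIT4 and EIF4EBP1, both controls of mTORC1 signalling, stood at 0.905 and 0.948 times.

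Promoters of the list were searched for TGATGNAA, the element bound by CHOP or ATF4 with C/EBP partners. Both strands were searched in the 250 bases before the first listed RefSeq start of each gene, and other starts were not searched. The element occurred in 870 of 27305 promoters (3.19%) and in 6 of the 26 list members with an entry (23.1%). Matches below are shown with up to 40 bases on each side (GRCh38.p14, 5′ to 3′ on the gene's strand), the match in capitals, because these 6 are the members whose promoter holds the letters:
ATF3 (chr1:212565176-212565263, plus strand): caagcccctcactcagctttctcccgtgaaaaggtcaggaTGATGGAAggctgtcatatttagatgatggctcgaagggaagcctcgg
ASNS (chr7:97872429-97872516, minus strand): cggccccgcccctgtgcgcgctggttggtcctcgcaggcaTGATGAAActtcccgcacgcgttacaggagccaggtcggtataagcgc
CHAC1 (chr15:40953222-40953309, plus strand): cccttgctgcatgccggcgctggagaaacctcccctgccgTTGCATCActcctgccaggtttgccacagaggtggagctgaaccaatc
HERPUD1 (chr16:56931926-56932013, plus strand): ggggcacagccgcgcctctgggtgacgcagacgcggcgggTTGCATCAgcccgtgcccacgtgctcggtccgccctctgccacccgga
IARS1, named IARS in the tables (chr9:92293698-92293750, minus strand): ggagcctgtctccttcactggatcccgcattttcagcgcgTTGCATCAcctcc
PPP1R15B (chr1:204411997-204412067, minus strand): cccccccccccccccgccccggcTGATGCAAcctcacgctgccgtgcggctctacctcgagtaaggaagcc
ATF3, HERPUD1, IARS and PPP1R15B were higher, at 2.44, 1.59, 1.56 and 1.60 times, and ASNS and CHAC1 were below the threshold unless ratios were centred. DDIT3, ATF5, CEBPB and TRIB3, the members with the largest ratios, held no match in this window. The sterol element TCACNCCAC, searched likewise, was in 0.875% of promoters and in 1 of 21 cholesterol genes with an entry, SREBF2. The cAMP element TGACGTCA was in 1.77% of promoters and in 3 of 20 immediate early genes (JUND, DUSP1 and MAFF). The 3 patterns were counted separately, a match describes letters only, and no match says only that these letters are not in the window.

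Lists related to the integrated stress response, some of them holding its targets, differed less. Of 25 endoplasmic reticulum chaperone and unfolded protein response genes, 1 was higher (ERO1A, 1.87-fold) and 1 lower (SDF2L1, 0.607 times), with HSPA5, the chaperone BiP, at 334 and 284 CPM (0.848 times) and XBP1 at 1.002. Of 20 cytoplasmic tRNA synthetase genes, 1 was higher and 1 lower, the IARS and SARS genes above. Amino acid transporters had 2 of 21 higher and 0 lower, SLC3A2, the heavy chain of several transporters, at 196 and 332 CPM (1.69-fold) and SLC38A2 at 1.51-fold; in cells with no UMI of CER1 or PAX6 neither reached the threshold (log2 ratios of 0.55 and 0.54). Serine and one-carbon genes had 3 of 23 higher, PSAT1 of serine synthesis at 1.77-fold, the mitochondrial folate enzyme MTHFD2 at 1.67-fold and MAT2B at 2.14-fold, and 1 lower (ALDH1L1, 0.584 times).

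Heat shock genes had 6 of 25 higher and 0 lower (median 0.24). HSPB8, a small heat shock protein, had the largest ratio (0.455 and 3.59 CPM, 7.88-fold), and the inducible HSPA1A and HSPA1B, near-identical copies whose single values are uncertain, were 1.71-fold and 2.72-fold higher. The mitochondrial chaperones HSPA9 (276 and 463 CPM, 1.68-fold) and HSPE1 (1.52-fold) were higher, while HSPD1, the partner of HSPE1, stood at 1.11 and the constitutive HSPA8 at 0.872 times. HSP90AB1 and HSP90AA1, the most abundant members, stood at 1.09 and 1.08.

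Targets of p53, the factor that answers DNA damage, had 12 of 29 higher and 0 lower, with a median of 0.45. GADD45A stood at 8.94 and 35.0 CPM (3.92-fold). CDKN1A, the cell cycle inhibitor p21, stood at 4.80 and 16.1 CPM (3.36-fold, 3.12 to 3.61), with 24.0% and 11.3% of its UMIs in the top 1% of cells. MDM2, which degrades p53, stood at 66.2 and 114 CPM (1.72-fold), and the death genes BBC3 (PUMA) and FAS were 1.75-fold and 2.65-fold higher. PMAIP1 and BAX, the most abundant members, stood at 1.28 and 1.11, under the threshold. Apoptosis control genes had 3 of 25 higher (HRK 2.26-fold, BIRC2 1.58-fold, and BBC3 as given above) and 0 lower, with CYCS, cytochrome c, at 1.26. DNA repair genes had 0 higher and 0 lower of 32, from ERCC2 at 0.673 to RAD51AP1 at 1.49, and PCNA, the replication clamp, stood at 1.45. RAD51AP1 and PCNA were higher once ratios were centred.

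Inflammatory and other stress genes were mixed. Of 25 NF-kB and cytokine genes in the tables only 17 reached 100 UMIs, so values alone are given: LIF stood at 0.228 and 1.11 CPM, CCL2 at 1.25 and 3.86, IL6 at 0.627 and 1.80, NFKBIA at 11.4 and 19.1, and RELB at 17.2 and 10.1. Interferon and RNA sensing genes had 3 of 28 higher (B2M 1.53-fold, ISG20 1.72-fold and IFIT5 2.13-fold) and 2 lower, BST2, a tethering factor against enveloped viruses, at 403 and 235 CPM (0.582 times) and IFIT3 at 0.634. Sensors and editors of double-stranded RNA did not pass the threshold, with EIF2AK2, the kinase PKR, at 1.08, DDX58 at 0.892 and ADAR at 1.04. Oxidative stress genes had 3 of 25 higher, TXN above, SRXN1 2.76-fold and HMOX1 1.72-fold, and 3 lower, among them ME1, a source of NADPH (0.470 times), and GPX2, a glutathione peroxidase (0.583 times). Hypoxia genes had 4 of 23 higher and 2 lower, BNIP3L of mitophagy at 0.575 times and BNIP3 at 223 and 143 CPM (0.641 times, between the thresholds once ratios were centred). Lysosome and autophagy genes had 5 of 29 higher, NEU1 2.11-fold and CTSL 1.94-fold the most, and 2 lower, TFEB, a master factor of the lysosome, at 0.535 times. None of 42 proteasome genes was called in either direction, at a median of −0.07. With ratios centred on the median gene 2 of them were higher, PSMB2 and PSMA5.

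Immediate early and AP-1 genes, which respond within minutes to growth factors and stress, had the highest median of the lists drawn (1.14), with 18 of 25 higher and 0 lower. JUN stood at 41.2 and 88.3 CPM (2.14-fold), FOS at 4.41 and 10.9 (2.47-fold), MYC at 10.7 and 33.4 (3.14-fold) and KLF6 at 34.1 and 53.8 (1.58-fold). ZFP36, which destabilises mRNA with AU-rich elements, had the largest ratio at 0.500 and 2.10 CPM (4.20-fold), and its relative ZFP36L1 was 1.93-fold higher. The abundant members IER2 and BTG1 stood at 1.05 and 0.924, and JUND at 1.32, so the list was not uniform.

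In the FGF and ERK pathway, several feedback genes were higher, and no ligand or receptor was. The list had 11 of 28 higher and 2 lower (median 0.40). The ERK phosphatases DUSP6 (0.244 and 1.02 CPM, 4.18-fold), DUSP4 (3.48-fold) and DUSP5 (3.14-fold), the inhibitors SPRY4 (2.92-fold) and SPRY2 (1.87-fold), and PHLDA1 (3.28-fold) were among the higher. FGF4, the main FGF of the epiblast, was lower (72.6 and 43.5 CPM, 0.599 times), as was FGFR3 (0.512 times), while FGF2 stood at 1.14 and FGFR1 at 1.22. The shared members FOS, EGR1, FOSL1 and MYC count in this list and in the preceding one.

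YAP and SRF targets, which respond to tension and actin, had 8 of 26 higher and 1 lower (median 0.26). CCN1 and CCN2, matricellular YAP targets, stood at 5.07 and 16.9 and at 17.6 and 32.9 CPM (3.34-fold and 1.87-fold), AMOTL2 was 2.69-fold and the SRF target TAGLN 2.24-fold higher. ANKRD1 stood at 0.0333 and 0.672 CPM (20.2-fold, 9.09 to 55.7). It had only 6 UMIs in SO_L1, and 74.3% of its ASO_L1 UMIs lay in the top 1% of cells. TEAD4 was 1.72-fold higher, while YAP1 itself stood at 0.970. MYL9 was lower at 0.658 times, between the thresholds once ratios were centred. The ROCK inhibitor, which acts on this axis, was in both cultures for the same hours.

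Other signalling lists held called members in both directions. Nodal genes had 3 of 26 higher and 1 lower: TGIF1, a SMAD corepressor, stood at 23.9 and 57.6 CPM (2.41-fold), while NODAL stood at 0.923, LEFTY2 at 981 and 875 CPM (0.892), LEFTY1 at 0.998 and the co-receptor TDGF1 at 1.23. BMP genes had 2 of 19 higher, ID3 (2.24-fold) and MSX2 (4.06-fold), and 2 lower, the ligands BMP7 (0.588) and BMP2 (0.600 times). Wnt genes had 5 of 31 higher, among them WLS, the ligand carrier (3.41-fold), SP5 (2.33-fold) and the receptor FZD5 (54.9 and 97.3 CPM, 1.77-fold), and 2 lower, WNT8A (0.492) and GSK3B (0.642 times, between the thresholds once ratios were centred). Notch genes had 4 of 23 higher and 4 lower: the targets HES1, NRARP (2.26-fold), HEY1 (2.16-fold) and HES4 (1.54-fold) were higher, and HES5, the ligands DLL1 (0.635) and JAG2 (0.632) and LFNG (0.639 times) were lower. With ratios centred on the median gene DLL1 and LFNG lay between the thresholds, which left 5 higher and 2 lower Notch genes. Insulin and mTORC1 genes had 2 of 28 higher and 2 lower, with MTOR at 0.969 and TSC2 at 0.769.

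Host genes of small nucleolar RNAs, which guide modification of ribosomal RNA and are freed from introns while the spliced host is degraded by nonsense-mediated decay, had 19 of 31 higher and 1 lower (median 0.67). SNHG32 (17.8 and 64.0 CPM, 3.60-fold) and SNHG1 had the largest ratios, and SNHG15 (2.97-fold), SNHG25 (2.44-fold), EPB41L4A-AS1 (2.31-fold, uncertain as an antisense gene), SNHG8 (2.02-fold) and SNHG5 (324 and 607 CPM, 1.87-fold) were among the others. The abundant SNHG29 and ZFAS1 stood at 1.42 and 1.45, just under the threshold. SNHG14, the long host transcript of the SNORD115 and SNORD116 repeats, stood at 1018 and 852 CPM (0.836), and SNHG22 was the lower member (0.537 times). Factors of the decay pathway stayed between the thresholds, UPF1 at 0.831, UPF2 at 1.05, SMG1 at 0.993 and UPF3A at 1.43.

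Few genes of the translation machinery were called, while sums of some of these lists per cell, given below, were higher in ASO_L1. Cytoplasmic ribosomal protein genes had 4 of 85 higher, RPL23A, RPL38 (513 and 886 CPM, 1.73-fold), RPS10 and RPS27L (both 1.55-fold), and 2 lower, RPL12 (2774 and 1720.1 CPM, 0.620 times) and RPL3L (between the thresholds once ratios were centred), and their sum was 205757 CPM in SO_L1 and 214151 in ASO_L1. Many of these genes have processed copies, so single values are uncertain. Translation factors had 6 of 59 higher and 3 lower: EEF1A1, the elongation factor, stood at 3308 and 5456 CPM (1.65-fold), PABPC1 at 1.64-fold, EIF4A2 at 1.71-fold and EIF4A3 at 1.88-fold, against EIF3D at 0.510 and EIF4G3 at 0.573 times. The list summed to 19289 CPM in SO_L1 and 21705 in ASO_L1, and the difference in EEF1A1 was most of that between the sums. Nucleolar and RNA polymerase I genes had 4 of 44 higher (ZNRD1 1.98-fold, NOP10 1.79-fold, RRN3 1.60-fold and DDX18 1.55-fold) and 0 lower. With ratios centred on the median gene 8 of these were higher, with POLR1D, TAF1A, TAF1D and UTP4 added. The nucleolar proteins NPM1 and NCL stood at 1489 and 1929.8 and at 1189 and 1301 CPM, ratios of 1.30 and 1.09. Splicing factors had 7 of 54 higher and 0 lower, with HNRNPA2B1 at 402 and 648 CPM (1.61-fold), HNRNPF at 1.73-fold and SRSF9 at 1.99-fold. Of RNA decay and export genes, ALYREF, an mRNA export adaptor (34.0 and 96.0 CPM, 2.83-fold), and NXT1 (1.71-fold) were the 2 higher of 32, with 0 lower. RNASEH1, which cuts RNA paired with DNA, stood at 98.8 and 98.7 CPM (0.998). Of 23 genes of RNase H and oligonucleotide handling, M6PR, a receptor of endosomal sorting, was the 1 higher (1.85-fold) and VPS28 the 1 lower (0.603 times).

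Cholesterol synthesis and uptake genes, most of them targets of SREBP2, formed the lowest list, with 0 of 28 higher and 12 lower and a median of −0.52. The lower members included the enzymes HMGCS1 (73.7 and 47.0 CPM, 0.638 times), MVK (0.496), MVD (0.552), FDFT1 (190.5 and 119.6 CPM, 0.628), LSS (0.621), TM7SF2 (0.591), NSDHL (0.665) and DHCR7 (44.5 and 19.8 CPM, 0.446). The sensor INSIG1 (0.652) and the factor SREBF2 (199.96 and 119 CPM, 0.594) were lower too. With ratios centred on the median gene 9 members were lower, and HMGCS1, NSDHL and INSIG1 lay between the thresholds. CYP51A1, a sterol demethylase, stood at 1.06 and SCAP, the SREBP escort, at 1.29, so not every step was lower. Fatty acid synthesis genes had 1 of 23 higher (SCD5, 2.28-fold) and 5 lower, FASN at 91.8 and 57.3 CPM (0.624), ACSS2 at 0.512 and ME1 at 0.470, with SREBF1 at 0.951.

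Most energy metabolism genes lay between the thresholds. Glycolysis genes had 1 of 25 higher, the glucose transporter SLC2A3 (66.5 and 146 CPM, 2.19-fold), and 3 lower, the lactate exporter SLC16A3 (0.440) and the phosphofructokinases PFKP (0.627) and PFKL (0.643 times, between the thresholds once ratios were centred), with a median of −0.26. Their sum per cell, given below, was lower in ASO_L1. GAPDH stood at 3676 and 2918 CPM (0.794), PKM at 0.790 and LDHA at 0.836. Genes of the TCA cycle had 2 of 24 higher, MDH1 (1.79-fold) and SDHB (1.64-fold), and 3 lower, IDH2 (0.560), PC (0.646) and IDH3G (0.666 times), of which PC and IDH3G lay between the thresholds once ratios were centred. Nuclear-encoded respiratory chain genes had 3 of 80 higher and 3 lower, NDUFB3 at 34.5 and 91.2 CPM (2.64-fold) and NDUFA11 at 477 and 285 (0.599 times), both in complex I. Mitochondrial ribosomal protein genes had 8 of 78 higher, MRPL39 (2.12-fold), MRPL32 and MRPS22 (both 1.89-fold) the most, and 4 lower, MRPL23 above and MRPL12 at 441 and 279 CPM (0.633 times). Nucleotide synthesis genes had 2 of 28 higher and 2 lower, XDH, which breaks down purines, at 6.25 and 2.25 CPM (0.360 times).

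The core of the pluripotency network stood at near equal levels. Of 27 general pluripotency genes, 2 were higher and 0 lower (median 0.10). POU5F1 stood at 1043 and 1059.6 CPM (1.02, 1.01 to 1.02), NANOG at 1.07, SOX2 at 359.6 and 295 (0.820), LIN28A at 1.11 and DPPA4 at 1.21. FOXD3 (1.48 and 6.30 CPM, 4.25-fold) and HESX1 (1.81-fold) were the higher members. The primed list held 9 higher and 0 lower genes among 21 (median 0.35), VIM, MYC and ZIC2 above among them, with SFRP2 at 28.96 and 66.3 CPM (2.29-fold) and NTS, neurotensin, at 2.11-fold. The naive list, of 29 measured genes, held 8 higher and 2 lower ones (median 0.05): the phosphatase ALPG stood at 17.1 and 67.5 CPM (3.94-fold), KLF4 at 5.25 and 15.3 (2.92-fold), KLF2 at 4.29-fold, ALPP at 7.85-fold (39 UMIs in SO_L1, and 66.7% of its ASO_L1 UMIs in the top 1% of cells) and the maternal factor DPPA3 at 1.76-fold, while TFCP2L1 stood at 1.202, DNMT3L at 1.21 and KLF17 at 0.739 from 86 and 94 UMIs. Higher members were thus found in both the naive and the primed list.

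Apart from ZSCAN4, TPRX1 and DUXB, 11 of 28 listed 8C genes reached 100 UMIs, so the list is given by values alone. KHDC1L stood at 0.888 and 5.39 CPM (6.07-fold), with 88.8% and 30.6% of its UMIs in the top 1% of cells. CCNA1, an embryonic and germ cell cyclin, stood at 7.85 and 26.3 CPM (3.35-fold), ZNF280A at 0.189 and 0.867 (4.59-fold), and PNP at 68.4 and 86.9 (1.27). ARGFX, also an 8C gene, stood at 1.04 and 0.593 CPM (0.571 times). The rule had removed 74 SO_L1 and 312 ASO_L1 cells for TPRX1, 7 and 74 for ZSCAN4 and 7 and 56 for DUXB, and free RNA from such cells cannot be told apart from expression at these levels.

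Lineage genes were scarce, and several lists had few measured members. Neural genes had 2 of 19 higher (SOX3 2.22-fold and OTX1 1.52-fold) and 6 lower (median −0.45), HES5 and NCAM1 above, ELAVL3 at 40.7 and 20.6 CPM (0.506) and RAX at 0.523, with TUBB3 at 483 and 332 (0.688); the PAX6 rule had already removed cells of neural character. Of mesendoderm genes 13 of 23 reached 100 UMIs: MIXL1 stood at 12.1 and 14.95 CPM, TWIST1 at 2.63 and 8.56 and FOXA2 at 0.189 and 0.709. Among 48 regulators known as PRC2 targets only 11 reached 100 UMIs, with HOXB2 at 0.816 and 3.48 CPM, GBX2 at 1.28 and 2.06 and IRX2 at 58.7 and 41.2. In trophectoderm and amnion 17 of 27 were measured, ANXA3 at 3.29 and 14.7 CPM, TEAD4 at 58.2 and 99.9 and KRT18 at 392 and 421. The S100 and annexin list had 20 of 29, with S100A6 at 13.7 and 53.02 CPM, S100A11 at 450.4 and 741 and ANXA6 at 72.6 and 36.7.

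Chromatin regulators held few called members. PRC2 and PRC1 genes had 4 of 30 higher, among them the PRC1 members CBX8 (2.70-fold), PCGF1 (2.47-fold) and BMI1 (1.79-fold), and 1 lower, CBX7 (0.424 times). The PRC2 core stood at 87.5 and 67.7 CPM for the methyltransferase EZH2 (0.774), 86.4 and 93.2 for SUZ12 (1.08) and 12.9 and 17.8 for EED (1.38), all under the threshold. LINE1 silencing and restriction genes had 0 of 27 higher and 1 lower, the nucleotide hydrolase SAMHD1 (74.1 and 41.3 CPM, 0.557 times). TRIM28, the corepressor of KRAB zinc fingers, stood at 0.922 and the HUSH members TASOR and MPHOSPH8 at 1.13 and 1.05, and the 489 zinc finger genes had 27 higher and 21 lower. Of DNA methylation genes 1 of 21 was higher (DPPA3) and 0 lower, with DNMT3B at 574 and 481 CPM (0.838) and TET1 at 0.986. Histone deacetylase and acetyltransferase genes, the class on which TSA acts, had 0 higher and 1 lower (HDAC10, 0.584 times) of 29. Histone cluster genes had 5 of 55 higher and 2 lower, HIST1H4C at 730.0 and 1004 CPM (1.37), and close copies make single values uncertain.

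Cell cycle genes differed in few members. Mitosis genes had 4 of 32 higher and 1 lower, UBE2C, which loads the anaphase-promoting complex, at 105 and 202 CPM (1.93-fold), CENPA at 1.77-fold, CDK1 at 1.75-fold and CCNA2 at 1.66-fold, while CCNB1 stood at 0.911, TOP2A at 1.14 and MKI67 at 0.785. DNA replication genes had 0 of 33 higher and 2 lower, POLA2 (43.5 and 17.0 CPM, 0.390 times) and GINS2 (0.530 times). Cyclins and CDK inhibitors had 5 higher and 0 lower of 24, CCND2 at 1.64-fold beside CDKN1A and CCNA1 above.

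Surface and matrix lists are set beside 9.06% higher and 13.4% lower among all measured genes. Extracellular matrix and cytoskeleton genes had median log2 ratios of 0.006 and −0.005. Cadherin, integrin and junction genes had 6 of 28 higher and 0 lower, EPCAM at 196 and 340.4 CPM (1.73-fold), ITGAV at 1.68-fold and ITGB1 at 126 and 198 (1.57-fold), with CDH1, E-cadherin, at 0.839. Extracellular matrix genes had 6 of 34 higher and 4 lower, COL12A1, a fibril-associated collagen, at 0.305 and 1.43 CPM (4.68-fold), SPARC at 1.92-fold and TIMP3 at 54.4 and 24.8 (0.456 times). Cytoskeleton genes had 4 of 32 higher, VIM, LMNA (1.77-fold), MYL12A (1.76-fold) and PFN1 (1.59-fold), and 1 lower, TUBB4B (526 and 326 CPM, 0.618 times). Potassium and calcium channel genes had 4 of 110 higher and 20 lower (median −0.25), RYR2 above, KCNB2 at 18.8 and 8.64 CPM (0.459) and KCNQ3 at 37.7 and 18.6 (0.493), against KCNT2 at 55.3 and 84.7 (1.53-fold).

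Ratios varied with the span of the gene, exons and introns together. Of 779 protein-coding genes over 300 kb, 14 were higher and 214 lower (27.5%), with a median log2 ratio of −0.35, and for the 2545 from 100 to 300 kb the median was −0.13. For the 4192 genes from 10 to 30 kb it was 0.00, with 10.1% higher and 8.75% lower. Restricted to genes with a mean over 30 CPM the medians were −0.36 over 300 kb (3 of 354 higher and 80 lower) and 0.04 from 10 to 30 kb. The channel list had a median span of 89.8 kb, the small nucleolar RNA host genes 6.64 kb and the immediate early genes 5.62 kb, against 20.4 kb for the integrated stress response. Protein-coding genes from 2 to 5 kb and from 5 to 10 kb both had a median of −0.03. Of the lowest genes named before the lists, SYN3, NRG3, CHODL, FAM155A, RYR2, LRMDA, PCDH7 and NCAM1 span over 300 kb. COMMD1, C7orf50, ARHGAP28, CYP19A1 and DOCK8 span from 100 to 300 kb. TCF25, MRPL23, GNPTAB, CDC16, HES5, PILRB, INHBC, CNGA4 and CCDC92 are shorter. The part of span in the values of these lists and genes was not tested. The sources used here do not say whether intronic reads were counted.

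**Figure D4:**
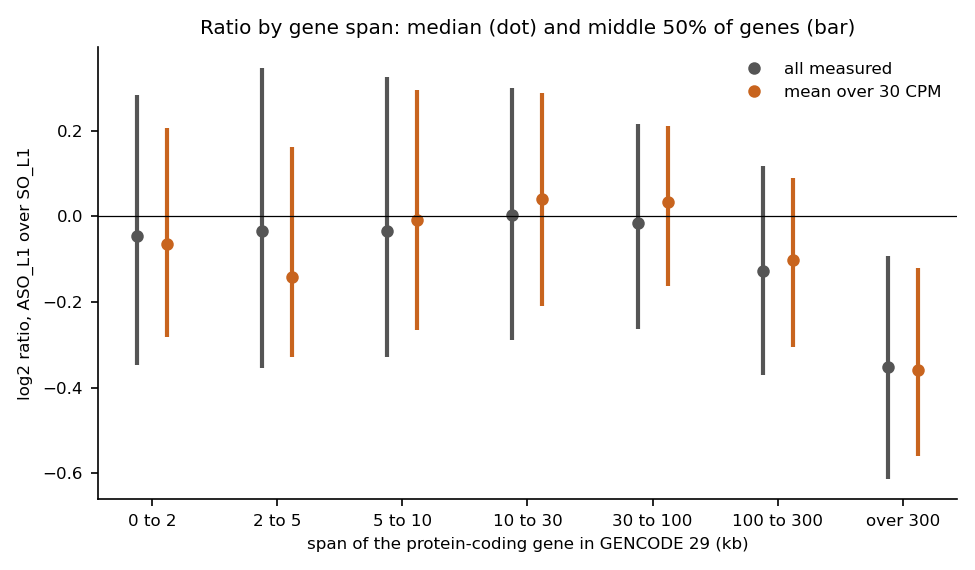
Log2 ratio of CPM, ASO_L1 over SO_L1, by the span of protein-coding genes in kb: dots are medians and bars the middle 50% of genes, grey for all measured genes and orange for those with a mean over 30 CPM. The medians lie near 0 up to 100 kb and reach −0.35 and −0.36 over 300 kb.

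Across cells, some differences covered most of the population and others lay in a tail. Each cell was thinned to 20000 UMIs, which left 3983 SO_L1 and 4836 ASO_L1 cells and left out 333 and 239 shallower ones. RPL23A had a 10th percentile, median and 90th percentile of 5, 9 and 14 UMIs in SO_L1 and 14, 21 and 29 in ASO_L1, and 88.9% of ASO_L1 cells lay above the SO_L1 90th percentile. For TXN the values were 2, 5 and 9 against 6, 11 and 17 (66.6% above), and for MIR302CHG 2, 6 and 11 against 5, 15 and 28 (65.4% above). VIM had 0, 2 and 7 UMIs against 0, 4 and 27, so its 90th percentile differed more than its median. POU5F1 had 14, 21 and 28 against 14, 21 and 29.

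Summed over lists, the small nucleolar RNA host genes had 65, 81 and 98 UMIs per thinned cell in SO_L1 and 78, 113 and 164 in ASO_L1, with 65.1% of ASO_L1 cells above the SO_L1 90th percentile. Integrated stress response genes had 21, 30 and 41 against 24, 37 and 68, with 42.6% above; for DDIT3 alone, 24.2% of ASO_L1 cells and 1.23% of SO_L1 cells lay above the SO_L1 90th percentile of 1 UMI. The lower bound of that list was thus nearly shared while the upper bound was not. Cholesterol genes had 26, 39 and 56.8 against 16, 27 and 47, with 43.6% of ASO_L1 cells below the SO_L1 10th percentile. Glycolysis genes had 162, 196 and 242 against 143, 173 and 207, with 31.5% of ASO_L1 cells below the SO_L1 10th percentile, and fatty acid synthesis genes 20, 29 and 40 against 14, 23 and 35, with 33.5% below. Translation factors had 344, 387 and 429 against 365, 431 and 516, with 50.9% of ASO_L1 cells above the SO_L1 90th percentile. Most of the difference in this sum lay in EEF1A1, as given above, and the list median log2 ratio was 0.10. Splicing factors had 188, 222 and 260 against 217, 253 and 292, with 38.9% above, and nucleolar genes had 32.3% above. Ribosomal protein genes had medians of 4163 and 4294, with 28.5% above and 10.9% below. General pluripotency genes had 101, 125 and 150 against 95, 124 and 150. In SO_L1, SYN3 had 2, 9 and 21 UMIs per cell and in ASO_L1 0, 2 and 9.

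**Figure D5:**
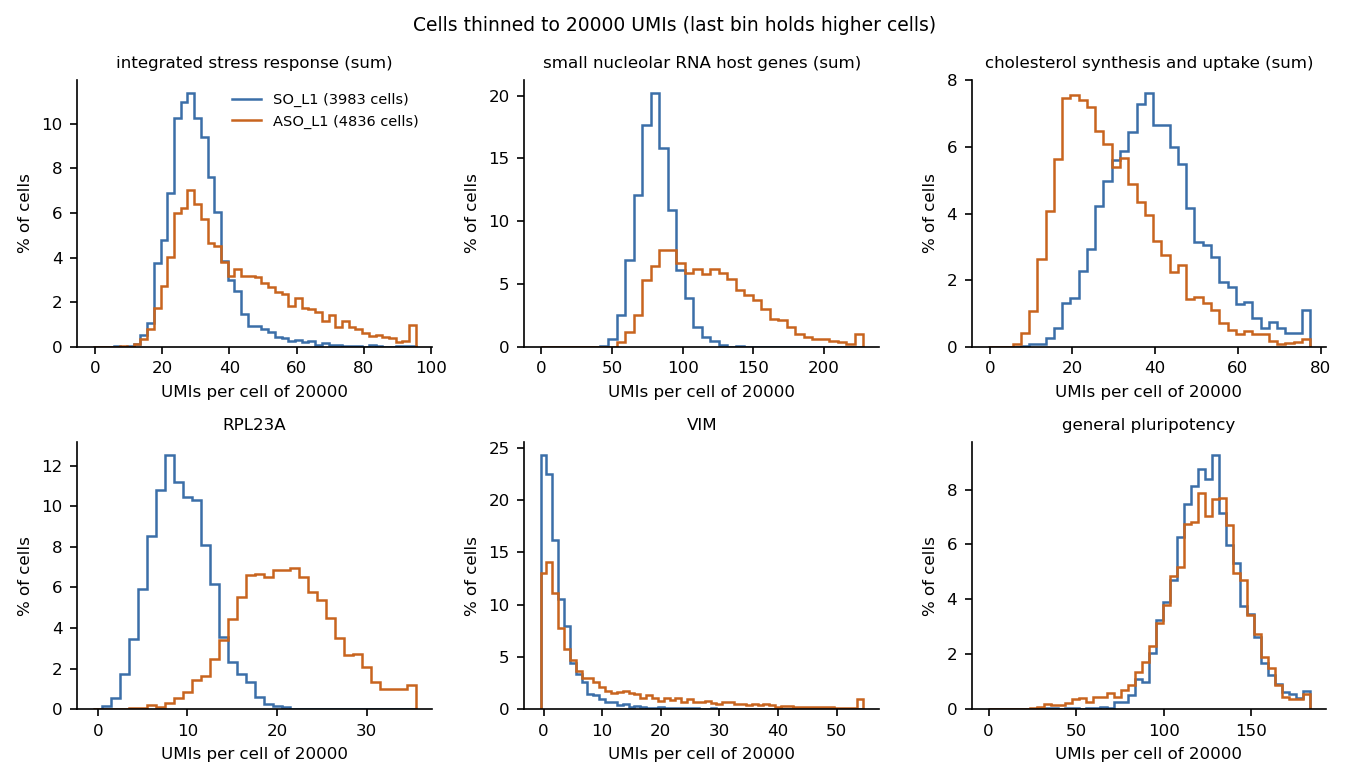
Percent of cells (y axis) by UMIs per cell of 20000 (x axis) in SO_L1 (blue, 3983 cells) and ASO_L1 (orange, 4836 cells), for 4 list sums and for RPL23A and VIM. RPL23A and the small nucleolar RNA host genes are shifted, the integrated stress response and VIM have a longer upper tail in ASO_L1, cholesterol genes lie lower, and general pluripotency genes overlap apart from a small low tail in ASO_L1.

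Some list sums went together from cell to cell, of 66 pairs computed in each library. Across the 4836 thinned ASO_L1 cells, with members shared between lists left out, the integrated stress response sum correlated with the small nucleolar RNA host sum at Pearson's 0.59 (0.05 in the 3983 SO_L1 cells), with p53 targets at 0.36 (0.04) and with cholesterol genes at −0.49 (0.02). General pluripotency genes correlated with the immediate early sum at −0.42 (−0.10), and by ranks (Spearman's) at −0.27 (−0.07). Other pairs also went together or apart in SO_L1: translation factors and ribosomal protein genes correlated at 0.78 (0.58), ribosomal protein and channel genes at −0.66 (−0.50), and cholesterol and fatty acid synthesis genes at 0.60 (0.44). The integrated stress response did not go with glycolysis (−0.01 in ASO_L1). Cells of a library share its preparation, and sums taken from a fixed number of UMIs compete with each other, so these values are descriptions.

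Mitochondrial share, which the rule bounded, also moved with the lists inside the chosen cells. In ASO_L1 the integrated stress response summed to 2521 CPM in the 803 cells at 4% to below 6%, 2206 at 6% to below 8%, 1842 at 8% to below 10% and 1696 in the 741 cells at 10% or more. In SO_L1 the same bins gave 1614, 1575, 1556 and 1523 CPM, so ASO_L1 was higher in each bin, by less at high mitochondrial shares. DDIT3 went from 92.3 to 26.9 CPM over those bins in ASO_L1 and from 21.3 to 5.63 in SO_L1, and VIM from 777 to 217 and from 242 to 109. RPL23A differed little over the bins (1071, 1057, 1028 and 986 CPM in ASO_L1 and 457, 460.2, 466 and 466 in SO_L1), and MIR302CHG was higher at high shares in both libraries, from 685 to 847 CPM in ASO_L1 and from 265 to 323 in SO_L1. Cholesterol genes stood at 1258 CPM in the lowest and 1805 in the highest bin of ASO_L1, against 1917 and 2060.0 in SO_L1.

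Beside the ordinary cells, the ratios in all 15637 filtered cells and in the 4388 cells under 2% mitochondrial UMIs come from the same 2 libraries. Of the genes higher in ordinary cells, 1653 (88.3%) were also higher in all filtered cells, which contain them, and 1400 (74.8%) in the low-mitochondrial cells. Of the lower genes, 2428 (87.9%) and 2055 (74.4%) were lower there too, and 17 and 63 were called in the opposite direction in low-mitochondrial cells. Larger shares of genes were called in those sets, 15.9% higher and 18.0% lower in all filtered cells and 22.9% and 24.9% in the low-mitochondrial cells. General pluripotency genes had a median of 0.10 in ordinary and −0.60 in low-mitochondrial cells, p53 targets 0.45 and −0.13, primed genes 0.35 and −0.29, and mitosis genes 0.06 and 0.63. The integrated stress response had 0.67 and 0.53 and the small nucleolar RNA host genes 0.67 and 1.22. For single genes, RPL23A was 2.25-fold and 2.27-fold higher in the 2 sets, DDIT3 7.01-fold and 2.32-fold, MIR302CHG 2.55-fold and 1.43-fold, and SYN3 stood at 0.352 and 0.155 times. No test of these differences between sets was possible with 1 library a side.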

How the data were processed

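Single-cell 3′ RNA was measured in 2 libraries of 1 line. The deposited matrices hold UMI counts per gene and barcode, made by the authors with Cell Ranger 7.1.0 per the file headers and aligned to hg38 per the submitters' processing notes; the annotation release, cell calling, intron counting and strand setting were "not given in the sources used here". Cells were selected on the measured values above; no doublet caller was run. Members, gene lists and rules were chosen with earlier results of these data known.

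UMIs were summed over cells and scaled to CPM without mitochondrial genes. Ratios have an exact conditional binomial (Clopper-Pearson) 95% interval, which covers counting error only. A list is described by its members with at least 100 UMIs, and lists share members; where under 75% were measured only values are given. Named genes are the 15 highest and 15 lowest with at least 500 UMIs by the interval bound nearest 1, the 10 highest and 10 lowest with at least 100 CPM in either library, per list the 2 with the largest log2 ratio in size and the 2 with most UMIs, and a fixed set (such as POU5F1 and EZH2). Clone-style, long intergenic and antisense names and the rule's genes were left out; other members named were chosen after their values were seen. Some genes that the rule selects are not reported here. Gene spans are from GENCODE 29, matched by identifier for 20166 of 20671 genes, and TMM factors from edgeR 4.0.16. Python 3.11.15, scipy 1.17.1 and R 4.3.3 were used. The interval code was tested on simulated data, and 15 alternatives were tried.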

Additional observations from a re-analysis of the deposited data

How the results depend on the processing

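With 1 library a side, no library could be left out and no test run, so these values show only how choices within the 2 libraries bear on the counts. No paired analysis was possible because each group holds 1 library. Without shared barcodes 4483 genes were lower (2763 as reported) and the median log2 ratio of all genes was −0.17. At a minimum of 500 UMIs 1192 genes were higher and 1719 lower, from fewer genes tested. Without the top 1% of cells of each gene 2875 were higher (1872 as reported). The other counts stayed within 1.5 times. Of list medians under the alternatives, 63 moved by over 0.1 log2 and 912 did not, and 25 of the 63 came without shared barcodes, where the integrated stress response stood at 0.86, small nucleolar RNA host genes at 0.90, cholesterol genes at −0.72, channels at −0.54 and hypoxia genes at −0.28. Centring, TMM scaling and counting mitochondrial genes in the total shift every ratio by the same amount, below 0.1 log2. Under these no list median could count as moved, so their share of the 912 shows nothing. The causes of the moves were not tested. For named genes 3460 values kept their call, 74 newly passed the threshold and 28 no longer passed it; none changed direction after a call. IARS (log2 ratio 0.57, in cells with no UMI of CER1 or PAX6) and HMOX1 (0.57, without the top 1% of cells) were among the 28. Leaving out faint copies and cells under 10000 UMIs was chosen after seeing the data. Scarce genes are limited by depth, as the interval of IL24 shows, and no interval covers differences between cultures.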

Other observations

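Noncoding RNAs of the nucleus differed gene by gene in the ordinary cells. Of 19 measured, 2 were higher and 4 lower, with a median log2 ratio of −0.18. XACT, an RNA that coats active X chromosomes in human pluripotent cells, stood at 1382 CPM in SO_L1 and 917 in ASO_L1 (0.664 times, between the thresholds once ratios were centred), and FTX, a noncoding gene of the X inactivation centre, at 814 and 505 (0.620 times). RMRP, the RNA of the nucleolar RNase MRP, stood at 3.29 and 1.37 CPM (0.417 times). CRNDE was 1.87-fold higher, and MALAT1, a nuclear speckle RNA, stood at 2109 and 3085 CPM (1.46), NEAT1, the core of paraspeckles, at 1.14 and ESRG, a transcript typical of human pluripotent cells, at 1.204.

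Imprinted genes had 2 of 21 higher (SNURF 2.03-fold and MAGEL2 1.55-fold, both scarce) and 1 lower, H19 at 20.6 and 13.1 CPM (0.638 times). With ratios centred on the median gene H19 and ATOX1 also lay between the thresholds. SNRPN, which shares its transcription unit with SNURF, stood at 737 and 521 CPM (0.707), so the counts of this pair, which overlap, are uncertain. Among iron and copper genes 3 of 25 were higher, the zinc exporter SLC30A1 at 1.59-fold and the iron exporter SLC40A1 at 1.75-fold among them, and 3 lower, the copper chaperones ATOX1 (166 and 109 CPM, 0.659 times) and CCS (0.620) and the iron importer SLC11A2 (0.619). The ferritin chains FTH1 and FTL stood at 1.11 and 1.38. Of germ cell genes 19 of 27 reached 100 UMIs; DAZL, an RNA-binding protein of germ cells, stood at 16.2 and 8.43 CPM, STAG3, a meiotic cohesin, at 9.07 and 5.11, TEX14 at 13.0 and 23.3 and PRDM1 at 2.03 and 3.78.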
